A study of Mus musculus with 17 samples.

Results

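Agrp, Npy and 3 genes of Y receptors (Npy1r, Npy2r and Npy5r) were followed. They were chosen by symbol from the deposited expression table, and all 5 of 5 were present among its 15355 genes. The libraries hold RNA pulled down with tagged ribosomes from the mediobasal hypothalamus of POMC RiboTag mice, in which an HA tag on a ribosomal protein marks cells with present or past activity of the driver gene. All 17 libraries share that genotype. Mothers were put on either standard chow or high-fat food (HFD, 45%) when 6 weeks old. Mating came 4 weeks later, and the food was kept until postnatal day 21. Offspring samples fall into chow at postnatal day 0 (P0, n = 5), HFD at P0 (n = 5), chow at day 21 (P21, n = 3) and HFD at P21 (n = 4). The driver of the tag is not named beyond POMC, and no sex, litter or batch is given. The labels number the samples as biological replicates without naming animals or pools, so the p-values measure only the spread between these samples, which may in part be technical. No unprecipitated tissue is among the libraries used here, so enrichment over whole tissue was not analysed here.

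AgRP and NPY are made together by appetite-promoting neurons of the arcuate nucleus, neighbours of the POMC neurons, which suppress appetite. AgRP blocks melanocortin MC3 and MC4 receptors, the receptors of the POMC product alpha-MSH. NPY acts through Y receptors that couple to inhibitory G proteins: Y1 and Y5 are known as feeding-promoting postsynaptic receptors, and Y2 is best known as a presynaptic autoreceptor on NPY neurons. Some arcuate neurons that make AgRP and NPY in the adult descend from cells that expressed Pomc earlier.

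In GENCODE M21 on GRCm38, Npy1r (chr8:66697192-66706792, plus strand) and Npy5r (chr8:66679965-66688128, minus strand) are neighbours that point away from each other, with 9064 bp between their starts. Npy lies at chr6:49822710-49829507 on the plus strand, Npy2r at chr3:82538383-82548084 on the minus strand and Agrp at chr8:105566698-105637393 on the minus strand. All 5 are protein-coding. Agrp shares 11.3% of its exonic bases with Gm5914 on the same strand and Ctcf on the opposite strand, and whether the gene counting used strand is not given in the sources used here, so reads from the shared bases cannot be told apart. The other members share none. Promoter windows of 300 bases, from 250 before to 50 after the RefSeq start on GRCm38.p6, matched 4 of 5 members. The windows of the neighbouring pair Npy1r and Npy5r are shown because both genes rose with age, and that of Npy because it is the ligand of both receptors. Capitals mark the motifs found.
Npy1r, chr8:66697172-66697471, plus strand: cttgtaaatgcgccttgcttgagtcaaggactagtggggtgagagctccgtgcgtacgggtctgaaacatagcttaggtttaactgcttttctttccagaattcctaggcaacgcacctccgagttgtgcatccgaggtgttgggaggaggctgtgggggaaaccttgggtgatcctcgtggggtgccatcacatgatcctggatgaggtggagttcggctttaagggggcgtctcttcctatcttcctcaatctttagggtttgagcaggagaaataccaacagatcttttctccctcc
Npy5r, chr8:66688045-66688344, minus strand: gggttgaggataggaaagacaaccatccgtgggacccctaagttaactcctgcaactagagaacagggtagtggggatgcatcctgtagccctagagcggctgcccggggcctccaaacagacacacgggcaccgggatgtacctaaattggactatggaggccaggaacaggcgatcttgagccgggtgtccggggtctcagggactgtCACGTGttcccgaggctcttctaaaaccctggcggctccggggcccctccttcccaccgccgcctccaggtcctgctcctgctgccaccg
Npy, chr6:49822460-49822759, plus strand: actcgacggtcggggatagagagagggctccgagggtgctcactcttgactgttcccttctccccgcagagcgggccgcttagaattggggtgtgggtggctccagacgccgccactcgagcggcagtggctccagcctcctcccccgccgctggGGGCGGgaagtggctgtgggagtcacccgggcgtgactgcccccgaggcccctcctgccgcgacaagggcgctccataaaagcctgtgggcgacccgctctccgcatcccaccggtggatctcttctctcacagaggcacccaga
Searched on both strands were 4 motifs, none of which contains another. The palindromic E-box CACGTG is in 7.17% of the 32544 RefSeq promoter windows, and the Npy5r window holds it at -40 from the start. The GC box GGGCGG is in 35.9% of them. The Npy window holds the GC box at -95, and the Npy2r window holds it at -62. The TATA box TATAAA is in 13.6% of all windows. The full cyclic AMP response element TGACGTCA is in 1.801% of all windows. These last motifs were not found in the windows of the 4 members, and none of the 4 motifs was found in that of Npy1r. A match is a description of letters, not evidence of a binding site.

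Values are normalized signal in CPM-like units, read counts scaled to library size. The libraries held 22.4 to 37.1 M reads in the table's genes, and 1 read was worth 0.0275 to 0.0460 units. Pomc, the gene of the targeted neurons, ranged from 90.7 to 1308 units at P0 and from 3878 to 12070 units at P21. At P0 it fell into separate ranges of 90.7 to 246 units in 6 libraries (chow replicates 1 and 2, HFD replicates 1 to 4) and 657 to 1308 units in the other 4. At P21 one chow library, replicate 3, stood apart: it had the highest Pomc of the 7 and the lowest value of all 5 members. Results that rest on it are given with and without it. Markers of other cells were present in every group, and no listed marker in the table of any cell type was at 0 in all libraries.

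The ligand genes were the more abundant members. Per kilobase of exon, Npy was highest in every group, with means of 173 ± 46.8 (SD, n = 5) in chow P0, 162 ± 86.6 (n = 5) in HFD P0, 586 ± 432 (n = 3) in chow P21 and 1011 ± 282 (n = 4) in HFD P21. Agrp came next, with means per kilobase of 13.6 ± 7.85, 10.2 ± 8.55, 109 ± 85.9 and 188 ± 67.1 in the same order. The receptors followed in the order Npy1r, Npy2r, Npy5r in both P0 groups and in HFD P21. In HFD P21 their means per kilobase were 55.7 ± 3.30 for Npy1r, 49.0 ± 1.70 for Npy2r and 17.03 ± 3.77 for Npy5r (n = 4), and no neighbours in the order overlapped. In chow P21 Npy2r (23.8 ± 10.9 per kilobase) and Npy1r (21.1 ± 4.08) overlapped, as did Npy and Agrp, and Agrp and Npy2r, through replicate 3. In both P0 groups the ranges of Agrp, Npy1r, Npy2r and Npy5r overlapped their neighbours in the order.

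**Figure D1:**
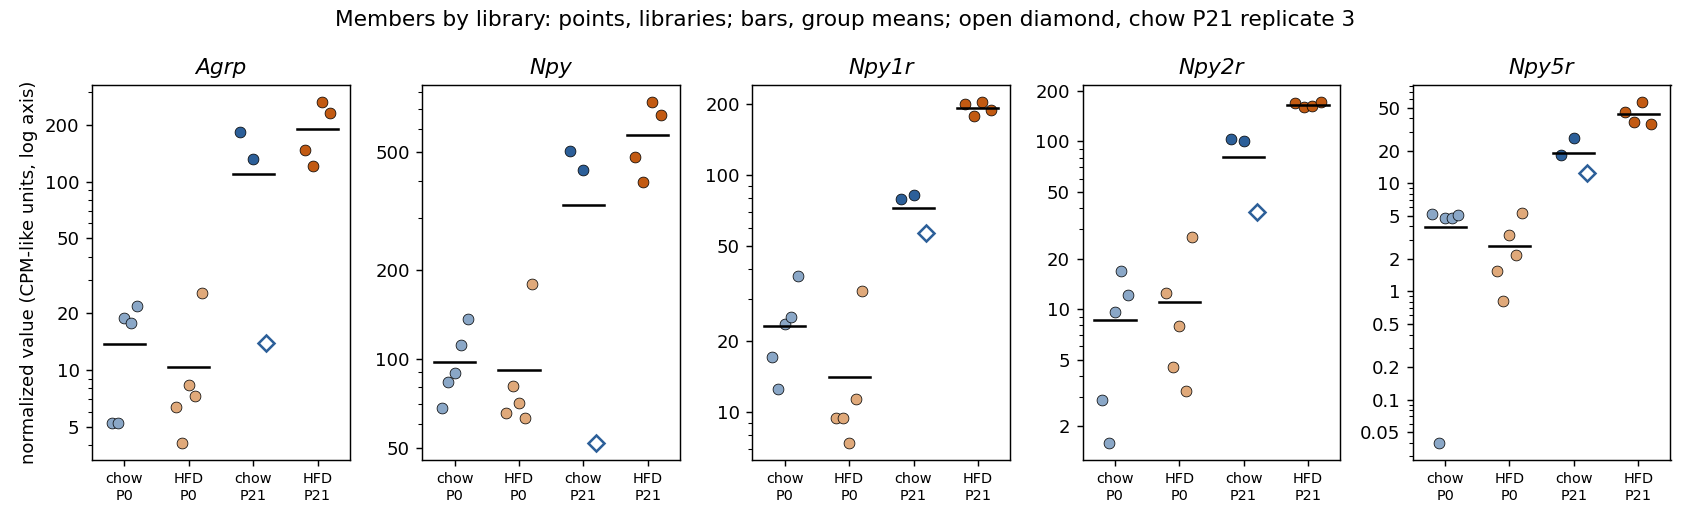
Normalized value of each member (CPM-like units, log axis) in every library of the 4 groups; points are libraries, bars group means, and the open diamond is chow P21 replicate 3. All 5 members are higher at P21 than at P0 in HFD offspring without overlap, and the diamond is the lowest P21 point in each panel, at 13.97 for Agrp and 51.93 for Npy.

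Agrp, the melanocortin receptor antagonist, was low at birth. The 5 chow P0 libraries gave 5.25, 5.25, 18.8, 17.8 and 21.9 units, and the 5 HFD P0 libraries gave 6.39, 4.11, 8.31, 7.25 and 25.6 units. The groups overlapped, since HFD replicate 5 was the highest of the 10. The chow P21 libraries gave 184, 132.5 and 13.97 units and the HFD P21 libraries 147, 121, 265 and 231 units. Chow replicate 3 lay within the P0 range, and the other 2 chow libraries lay within the HFD P21 range. Chow replicate 3 held 8.84% of the mean Agrp of the other chow P21 libraries.

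Npy, the orexigenic peptide made by the same neurons, was already well above Agrp at birth. Chow P0 libraries gave 68.1, 83.7, 89.6, 111 and 136 units and HFD P0 libraries 65.7, 81.1, 71.0, 62.9 and 179 units. The P0 groups overlapped, and HFD replicate 5 was again the highest. Chow P21 libraries gave 506, 437 and 51.9 units and HFD P21 libraries 483, 396, 740 and 669 units. Chow P21 replicate 3, at 11.0% of the mean of the other chow P21 libraries, was below every P0 library.

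Npy1r, which encodes the Y1 receptor, separated the diets at P21. At P0 the chow libraries gave 17.1, 12.5, 23.4, 25.2 and 37.7 units and the HFD libraries 9.41, 9.41, 7.42, 11.4 and 32.5 units. Of the 5 HFD libraries, 4 were below every chow library, and replicate 5 was above 4 of the chow libraries. At P21 the chow libraries gave 79.0, 82.8 and 56.7 units and the HFD libraries 199, 178, 203 and 188 units. The P21 groups did not overlap, and the HFD libraries spread over a range of 1.14 times from lowest to highest.

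Npy2r, the gene of the Y2 autoreceptor, gave 2.87, 1.60, 9.61, 16.9 and 12.2 units in chow P0 and 12.4, 4.53, 7.90, 3.24 and 26.8 units in HFD P0. These groups overlapped over most of their range. At P21 it gave 103, 101 and 38.0 units in chow and 169, 160, 162 and 172 units in HFD. The P21 groups did not overlap, and all HFD libraries lay within 1.07 times of each other.

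Npy5r, the gene of the Y5 receptor, was the least abundant member. Chow P0 libraries gave 5.25, 0.04, 4.81, 4.74 and 5.04 units, where 0.04 is a single read, and HFD P0 libraries gave 1.53, 0.81, 3.30, 2.16 and 5.35 units. The P0 groups overlapped. At P21 chow libraries gave 18.1, 26.1 and 12.6 units and HFD libraries 45.3, 37.2, 56.4 and 35.2 units, without overlap.

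The comparison of HFD with chow at P0 asks whether the dam's diet moved these genes at birth. Differences are log2 differences of value + 1 from limma, with standard errors, two-sided p-values and Benjamini-Hochberg adjustment over all genes tested. None of the 5 members passed an adjusted p of 0.05, where 0.291% of all genes tested were called in either direction. At an unadjusted p under 0.05, which 9.28% of all genes reached, there was 1 of 5, Npy1r (-0.80 ± 0.36, adjusted p = 0.515), and edgeR's quasi-likelihood test on the reads recovered from the values called 0 of 5. The difference was -0.42 ± 0.47 for Agrp (adjusted p = 0.839), -0.17 ± 0.27 for Npy (0.892), 0.33 ± 0.57 for Npy2r (0.905) and -0.35 ± 0.49 for Npy5r (0.879), all limma. The 95% intervals ran from -1.43 to 0.58 for Agrp and from -0.74 to 0.40 for Npy, so differences of either sign remain within them. Without HFD replicate 5, the difference of Npy1r was -1.14 (adjusted p = 0.0665, limma). The sign for Npy2r turned without that library and without chow replicate 2 (-0.06).

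Agrp, Npy and Npy1r were higher in the P0 libraries that held more Pomc, without overlap, a split that cuts across the diets. The split was set by the Pomc values of these same libraries. The share of all genes that separate likewise was not counted, so the split is not shown to be particular to these genes. Agrp was 4.11 to 8.31 units in the 6 libraries with the lowest Pomc and 17.8 to 25.6 units in the 4 with the highest. Npy was 62.9 to 83.7 units in the former and 89.6 to 179 units in the latter, and Npy1r was 7.42 to 17.1 units against 23.4 to 37.7 units. Npy2r (1.60 to 12.4 against 9.61 to 26.8 units) and Npy5r (0.04 to 5.25 against 4.74 to 5.35 units) overlapped between these sets. The 4 Pomc-rich libraries comprise 3 chow and 1 HFD library, and the part of this in the diet comparison was not tested. Because the libraries form separate clusters, the correlations planned over all 10 are not given. The set of 6 Pomc-poor libraries was not planned and was chosen after seeing the data. Within the 6 Pomc-poor libraries, Agrp and Npy gave Pearson's r of -0.63 (exact permutation p = 0.189, adjusted over 28 relations p = 0.300) and Spearman's rho of -0.52 (p = 0.300, adjusted p = 0.442). With the 2 libraries farthest in Agrp left out, r was -0.74 (n = 4).

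**Figure D2:**
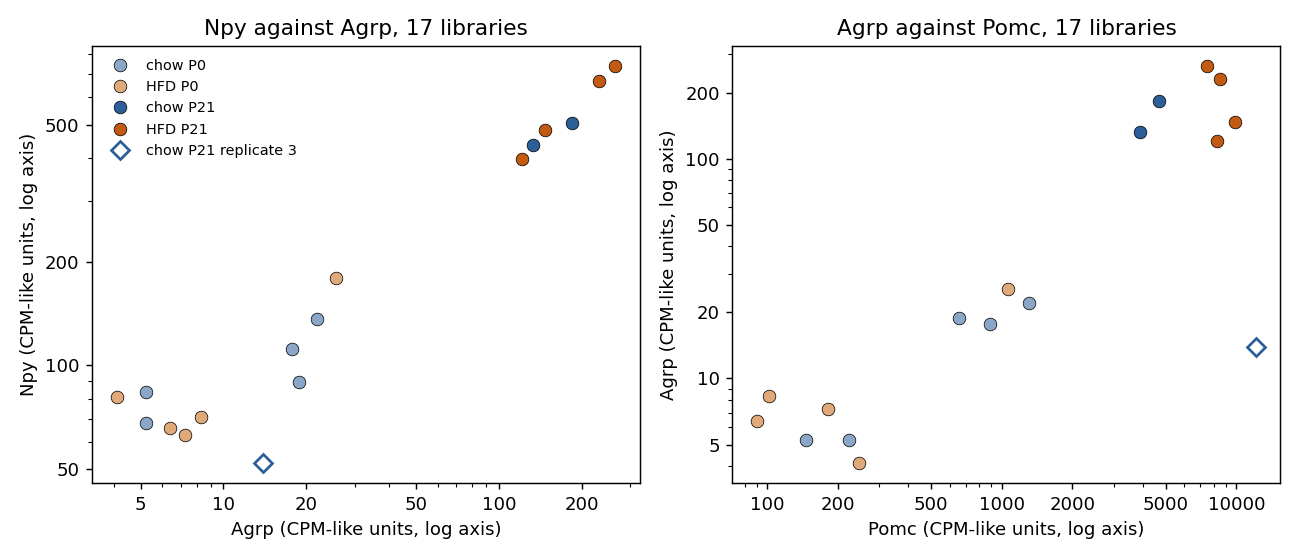
Npy against Agrp (left) and Agrp against Pomc (right), in CPM-like units on log axes; points are the 17 libraries by group, and the open diamond is chow P21 replicate 3. The other 6 P21 libraries follow 1 line in the left panel, and the diamond, at 12070 units of Pomc and 13.97 of Agrp, lies apart on the right.

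The comparison of HFD with chow at P21 asks the same at weaning. Npy1r rose: it was 192 ± 11.4 units (SD, n = 4) in HFD and 72.8 ± 14.1 (n = 3) in chow, 2.64 times by means, with a log2 difference of 1.41 ± 0.16 (limma, adjusted p = 0.0137). It was the only member of 5 called, against 0.0995% of all genes tested called higher. Npy2r was 166 ± 5.75 units in HFD and 80.6 ± 36.9 in chow (1.16 ± 0.28, limma adjusted p = 0.102), and Npy5r was 43.5 ± 9.63 and 18.9 ± 6.81 units (1.19 ± 0.26, adjusted p = 0.0796). The HFD and chow libraries of these 3 receptors did not overlap, as was the case with HFD higher for 8.34% of all genes. Agrp (1.35 ± 0.66, limma adjusted p = 0.329) and Npy (1.29 ± 0.60, adjusted p = 0.305) did not pass and overlapped between diets. In edgeR on the recovered reads Npy1r was likewise the 1 member called (adjusted p = 0.0351).

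Chow P21 replicate 3 decided the size of the ligand differences. Without it, the log2 differences were 0.22 for Agrp (limma adjusted p = 0.8291) and 0.24 for Npy (0.751), and the means differed by 1.21 times for both. Npy1r kept its call (1.24 ± 0.14, limma adjusted p = 0.0147), where 0.112% of all genes were called higher. Npy2r then differed by 0.70 (adjusted p = 0.175) and Npy5r by 0.94 (adjusted p = 0.296). The Npy1r call held with any 1 of the 7 libraries left out (adjusted p from 0.0147 to 0.0499, limma). It was lost when all 4 groups were fitted together (1.41, adjusted p = 0.112).

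Pomc, the other listed POMC neuron markers and the summed markers of other cells are given beside the P21 comparison. Pomc itself was 6875 ± 4516 units in chow and 8518 ± 978 in HFD, and without replicate 3 it was 1.99 times higher in HFD (limma adjusted p = 0.0498). Of 11 listed POMC neuron markers, Pomc included, limma and edgeR each called 1, Cartpt, where limma called 0.0995% of all genes higher. Cartpt was 2275 ± 359 units in HFD and 630 ± 223 in chow. Without replicate 3 it differed by 1.60 ± 0.17 (limma adjusted p = 0.0111), and 2 of the 11, Cartpt and Pomc, were called, beside 0.112% of all genes. The ratio of Pomc to Npy1r was 46.8, 59.2 and 213 in the chow libraries and 36.7 to 49.3 in the HFD libraries, which overlap. Relative to Pomc, the mean log2 level of Npy1r differed between diets by 0.91 (exact permutation p = 0.114, adjusted over 20 tests p = 0.286, smallest possible p 0.0571) and by 0.24 without replicate 3. The summed level of 12 oligodendrocyte lineage markers was 8294 to 18430 units in chow and 4030 to 7395 in HFD, and that of 12 astrocyte and tanycyte markers was 4457 to 6098 and 1831 to 3043. The 10 microglia markers summed to 341 to 557 units in chow and 216 to 305 in HFD, and the 10 endothelial and mural markers to 121 to 168 and 54.1 to 89.3. The sums of these lists were lower in HFD, without overlap between diets. The summed markers and upstream regulators of AgRP neurons were higher in HFD, also without overlap. They were 866.31 to 1022.05 units in chow and 1519.8 to 1701.05 in HFD. The 11 POMC neuron markers summed to 8339.34 to 16576.9 units in chow and 12849.6 to 15441.5 in HFD, which overlap. The sums of the remaining listed cell types overlapped as well. Meningeal fibroblast markers summed to 99.5 to 153 units in chow and 67.9 to 102 in HFD. Choroid plexus and ependymal markers summed to 56.1 to 91.4 and 32.0 to 66.5, and other hypothalamic peptides to 1191 to 1766 and 773 to 1544. Anterior pituitary markers summed to 9.42 to 35.7 and 10.4 to 49.3, and erythroid markers to 24.8 to 193 and 22.4 to 84.8. Gene by gene, limma called 4 of the 12 astrocyte and tanycyte markers lower in HFD (0 of 12 without replicate 3), beside 0.0782% of all genes called lower. It called 0 of 12 oligodendrocyte, 0 of 10 microglia and 0 of 10 endothelial and mural markers, with 11, 8 and 7 at an unadjusted p under 0.05, which 17% of all genes reached. In edgeR 2 of the 12 astrocyte and tanycyte markers were called lower, and 0 of the oligodendrocyte, microglia and endothelial and mural markers. Their part in the receptor difference was not tested. In pulled-down RNA from many cells, a change in the share of cells of a type and a change in RNA per cell cannot be told apart.

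In chow P21 replicate 3 the members fell short by different amounts. It held 8.84% of the mean of the other chow P21 libraries for Agrp, 11.0% for Npy, 37.3% for Npy2r, 56.8% for Npy5r and 70.1% for Npy1r, against 282% for Pomc. It also had the highest summed oligodendrocyte (18430 units), astrocyte and tanycyte (6098) and microglia (557) markers of the 7 P21 libraries. Among the other listed POMC neuron markers, Cartpt (391 units), Pcsk1 (36.3) and Tbx3 (42.7) had their lowest chow P21 value in it. So did Nhlh2 (16.1), Isl1 (54.1) and Nkx2-1 (24.7). Pcsk2 (224), Cpe (3696) and Pou3f2 (18.7) had their highest there, and Prdm12 (4.23) lay between. The low ligand values of this library thus stood beside high Pomc and high glial marker levels, while the other POMC neuron markers went both ways in it. With it left out, Agrp and Npy ranked the other 6 P21 libraries identically: Pearson's r was 0.98 and Spearman's rho 1.00 (exact permutation p = 0.00278 for each, adjusted over 28 relations p = 0.0156 for each). With the 2 libraries farthest in Agrp also left out, r was 0.93 (n = 4). Over all 7 P21 libraries, replicate 3 included, r was 0.998 and rho 1.00.

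**Figure D3:**
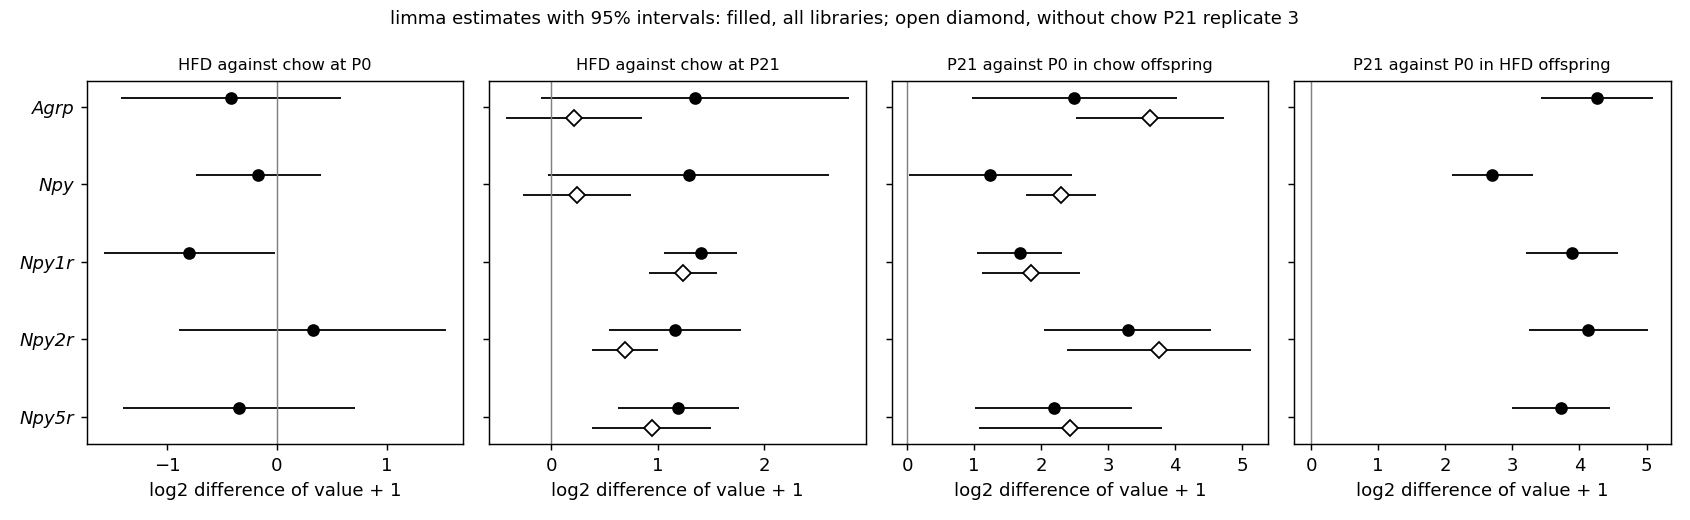
limma log2 difference of value + 1 for each member in 4 comparisons, with 95% intervals; filled points use all libraries and open diamonds leave out chow P21 replicate 3, and the horizontal scales differ between panels. Leaving that library out moves Agrp at P21 from 1.35 to 0.22, and Npy1r from 1.41 to 1.24.

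From birth to weaning in HFD offspring all 5 members rose. Agrp rose by 4.27 ± 0.39 on the log2 scale (18.5 times by means), Npy by 2.70 ± 0.28 (6.23 times), Npy1r by 3.89 ± 0.32 (13.7 times), Npy2r by 4.13 ± 0.41 (15.1 times) and Npy5r by 3.73 ± 0.34 (16.5 times). All 5 passed (limma adjusted p from 5.26e-07 to 4.19e-06), where 24.7% of all genes tested were called higher. No member overlapped between the ages, as for 19% of all genes with P21 higher. With so many genes called, these counts are to be read against that share. Pomc rose by 5.31 ± 0.52, more on the log2 scale than any member.

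In chow offspring 4 of 5 members rose with age, where 18.3% of all genes were called higher. Npy2r rose by 3.29 ± 0.58 (limma adjusted p = 0.000720), Agrp by 2.50 ± 0.71 (0.0149), Npy5r by 2.19 ± 0.54 (0.00684) and Npy1r by 1.68 ± 0.29 (0.000723). Npy differed by 1.24 ± 0.56 and did not pass (adjusted p = 0.103). The 3 receptors did not overlap between the ages, as for 19.3% of all genes with P21 higher, whereas both ligands overlapped through replicate 3. Without replicate 3 all 5 members passed, where 14.9% of all genes were called higher, with 3.63 for Agrp (limma adjusted p = 0.000321) and 2.29 for Npy (5.03e-05). The Agrp call was lost without chow P21 replicate 1 (1.81, adjusted p = 0.0897), without replicate 2 (2.05, adjusted p = 0.0817) and with a robust prior (adjusted p = 0.0637), all limma. In edgeR on the recovered reads all 5 members passed, Npy included (1.76, adjusted p = 0.0175).

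The difference between these age changes, tested as an interaction of diet with age in the 17 libraries, was not called for any member, where 0.0266% of all genes were called in either direction. At an unadjusted p under 0.05 limma gave 3 of 5 members and 15.2% of all genes. The count test in edgeR called 0 of 5, with 1 of 5 members and 14.3% of all genes under that unadjusted p. The estimates were 2.21 ± 0.47 for Npy1r (limma adjusted p = 0.0792), 1.77 ± 0.88 for Agrp (0.348), 1.54 ± 0.67 for Npy5r (0.287), 1.46 ± 0.69 for Npy (0.318) and 0.84 ± 0.78 for Npy2r (0.626). Without HFD P0 replicate 5 the Npy1r interaction was 2.55 and passed (adjusted p = 0.000905). Without chow P21 replicate 3 it was 2.04 (adjusted p = 0.214), and the estimates of Agrp and Npy were 0.64 and 0.41. With any 1 of the 17 libraries left out the Npy1r estimate ran from 2.01 to 2.55, with adjusted p from 0.000905 to 0.214 (limma).

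**Figure D4:**
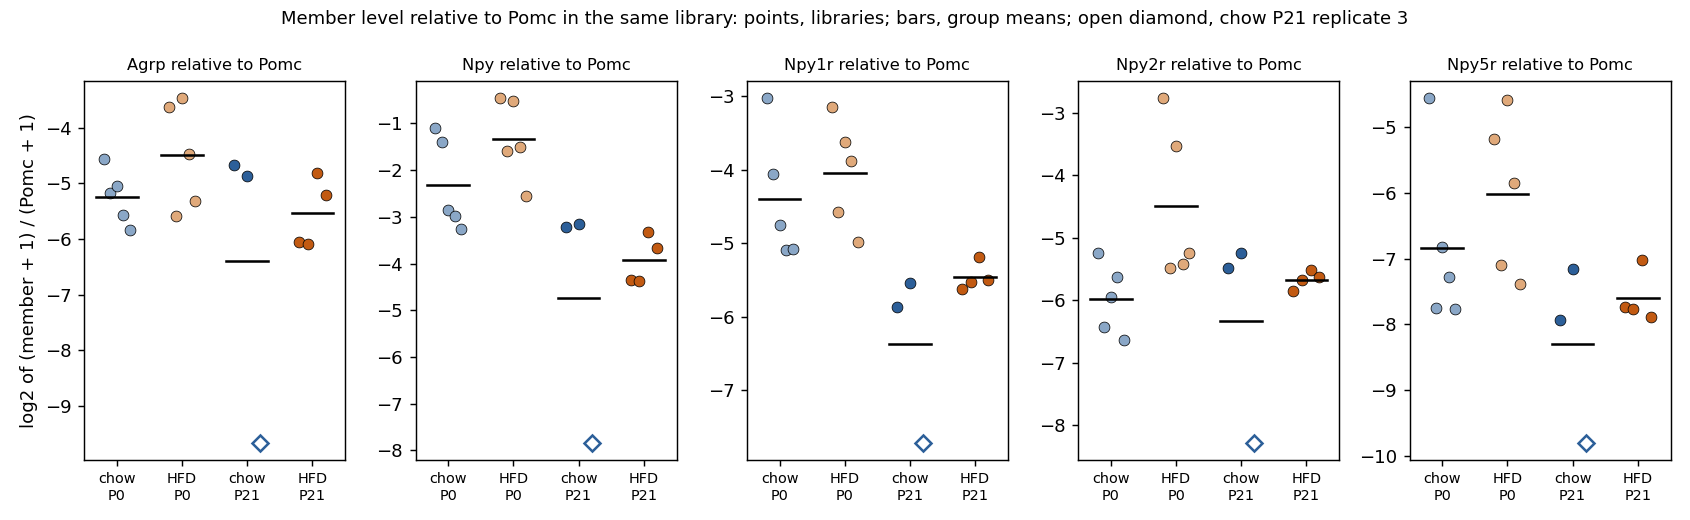
Level of each member relative to Pomc in the same library, as log2 of (member + 1) over (Pomc + 1), in the 4 groups; points are libraries, bars group means, and the open diamond is chow P21 replicate 3. Ratios are lower at P21 than at P0 in group mean for every member and diet, and the diamond is the lowest point in each panel.

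Relative to Pomc in the same library, the group mean of every member was lower at P21 than at P0 in both diets, with all libraries in. In HFD offspring the mean log2 ratio to Pomc differed between P21 and P0 by -2.60 for Npy, -1.58 for Npy5r, -1.42 for Npy1r, -1.18 for Npy2r and -1.04 for Agrp. None of the 20 ratio tests passed adjustment: the lowest adjusted p was 0.106, for Npy, Npy1r and Npy2r in this comparison, each at the smallest exact permutation p it allows (0.0159). In chow offspring the differences ran from -2.41 for Npy to -0.36 for Npy2r, and without replicate 3 those of Agrp and Npy2r turned to 0.48 and 0.61. The ratio of Npy to Agrp was 4.77 to 19.7 over the P0 libraries and 2.75 to 3.72 over the P21 libraries, replicate 3 included, so the ages did not overlap. The ratio of Npy1r to Npy2r at P21 was 0.767, 0.821 and 1.49 in chow and 1.09 to 1.26 in HFD.

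Partners of the ligands were described in the same way. Of 5 genes for AgRP's receptors and their partners, 0 passed for diet at P0 and 0 at P21 (limma, with 1 and 3 at an unadjusted p under 0.05, and 0 at each age in edgeR). Of all genes, 9.28% at P0 and 17% at P21 reached that unadjusted p. With age in HFD offspring 3 rose and 1 fell, where 24.7% of all genes rose and 26.2% fell. Mrap2, an accessory protein of melanocortin receptors, rose by 3.80 ± 0.28, Mc3r by 3.37 ± 0.48 and Mc4r, the main feeding-related melanocortin receptor, by 1.93 ± 0.29, while Sdc3, a heparan sulfate proteoglycan that binds AgRP, fell by 1.84 ± 0.27 (limma adjusted p from 2.31e-07 to 0.000108). In chow offspring, where 18.3% of all genes rose and 17.7% fell, Mrap2 (2.58 ± 0.38) and Mc3r (2.11 ± 0.37) rose and Sdc3 fell by 2.17 ± 0.17 (limma adjusted p from 2.24e-06 to 0.000698), the same counts as without replicate 3, where 14.9% and 14.4% of all genes did so. The median log2 difference of the 5 was 1.93 in HFD and 1.099 in chow offspring, beside -0.05 and -0.01 for all genes. Of 6 symbols listed for the rest of the NPY family and its processing, 1 was in the table, the peptide-cleaving protease Dpp4. It fell with age in HFD offspring by 1.17 ± 0.37 (limma adjusted p = 0.0160) and was not called by edgeR. Its values were at most 8.13 units.

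Y receptors signal through inhibitory G proteins, potassium channels and adenylyl cyclases. Of 19 such effector genes, 0 passed for diet at either age (limma, with 3 at P0 and 4 at P21 under an unadjusted p of 0.05, and 0 at each age in edgeR). That unadjusted p was reached by 9.28% of all genes at P0 and 17% at P21. With age, 7 rose and 5 fell in HFD offspring and 2 rose and 5 fell in chow offspring (3 and 3 without replicate 3). In all genes 24.7% rose and 26.2% fell in HFD offspring and 18.3% and 17.7% in chow offspring, and the counts of effectors are to be read against these shares. The potassium channel gene Kcnj9 rose by 1.99 ± 0.27 in HFD and 2.58 ± 0.22 in chow offspring, and Kcnj3 rose by 2.01 ± 0.33 in HFD. Gnai3, an inhibitory G protein subunit, fell by 1.54 ± 0.21 and 1.59 ± 0.18, and the adenylyl cyclase Adcy1 fell by 3.67 ± 0.36 and 2.30 ± 0.40, in HFD and chow offspring. The median log2 difference of the 19 was 0.16 in HFD and 0.14 in chow offspring, beside -0.05 and -0.01 for all genes.

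Of 16 markers and upstream regulators of AgRP neurons, 1 passed for diet at P21 and 0 at P0 (limma, with 7 and 2 at an unadjusted p under 0.05, and 1 and 0 called by edgeR). Of all genes, 0.0995% were called higher at P21, and 17% at P21 and 9.28% at P0 reached that unadjusted p. Asb4, a component of a ubiquitin ligase found in arcuate neurons, was 606 ± 57.5 units (SD, n = 4) in HFD and 189 ± 64.5 (n = 3) in chow at P21, a difference of 1.73 ± 0.21 (limma adjusted p = 0.0137), and it also passed without replicate 3 (adjusted p = 0.0111). With age, 7 rose and 3 fell in HFD offspring, where 15 of the 16 were tested, and 3 rose and 1 fell in chow offspring (5 and 1 without replicate 3). These counts are likewise to be read against all genes, of which 24.7% rose and 26.2% fell with age in HFD offspring. In chow offspring 18.3% of all genes rose and 17.7% fell, and 14.9% and 14.4% without replicate 3. The median log2 difference for diet at P21 was 0.36 with replicate 3 and -0.06 without it, beside -0.02 for all genes with all libraries in. Acvr1c, an activin-type receptor, rose by 2.65 ± 0.43 and 1.81 ± 0.34, and Gad2, an enzyme of GABA synthesis, by 1.38 ± 0.15 and 1.30 ± 0.18, in HFD and chow. The genes called lower with age were Insr in both diets, and Creb1 and Crtc1 in HFD offspring. Ghsr, the ghrelin receptor known for AgRP neurons, differed by 0.87 ± 0.44 with age in HFD offspring and did not pass (adjusted p = 0.115). With age in chow offspring Ghsr was not called with all libraries in. Without replicate 3 it rose there by 1.396 ± 0.336 and passed (limma adjusted p = 0.0086). Its chow P21 values were low, at 0.46 to 4.25 units.

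Genes whose library-to-library deviations from their own group mean were most like each member's were found over all 17 libraries among 11638 genes, with unnamed gene models left out of the names given. For Agrp these were Oprl1 (r = 0.93), Rbbp7 (0.93) and Npy (0.91). For Npy they were Agrp (0.91), Zfp157 (0.91) and Usp51 (0.90). For Npy1r they were Sf3b2 (0.97), Magee2 (0.96) and Slc25a12 (0.95), for Npy2r Tollip (0.94), Vps11 (0.93) and B3galnt1 (0.93), and for Npy5r Pdss2 (0.94), Exd2 (0.90) and Gtf2h1 (0.88), with 1 unnamed gene model ranking between Pdss2 and Exd2. An r of at least 0.8 was reached by 661 genes for Npy1r, 444 for Npy2r, 141 for Agrp, 77 for Npy5r and 39 for Npy, over points that share the same libraries and their depth. The likeness of the ligands rested in part on chow P21 replicate 3: without it Npy was 467th in likeness to Agrp (r = 0.83), and Agrp was 172nd in likeness to Npy. For Npy, Zfp157 then fell to 652nd (r = 0.76) and Usp51 to 1181st (0.68). For Agrp, Rbbp7 fell to 164th and Oprl1 to 14th. The genes named for the receptors stayed between 1st and 11th. Pomc, by contrast, came closer to the ligands without replicate 3, with r moving from 0.32 to 0.79 for Agrp and from 0.16 to 0.80 for Npy. These r also carry the separate Pomc ranges of the P0 libraries. Within the 6 Pomc-poor P0 libraries, Pearson's r with Pomc was -0.68 for Agrp and 0.62 for Npy. In the 6 P21 libraries without replicate 3, the deviations from group means gave r of -0.23 and -0.28.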

How the data were processed

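RNA was measured by RNA-seq after ribosome pull-down, as single reads of 50 bases per the labels. The submitters' processing notes name TopHat2 2.0.13, HTSeq 0.6.1, edgeR and build mm10. The authors deposited 1 table of normalized signal, gene counts divided by an effective library size, in CPM-like units with 2 decimals. The table also has 15 empty columns, which were not used. In all 17 libraries 100% of the non-zero values lay at whole reads within rounding, against 21.8% to 36.3% for values placed at random. By group the mean depth was, in M reads, 27.2 ± 3.20 for chow P0 (SD, n = 5), 26.6 ± 5.34 for HFD P0 (n = 5), 31.3 ± 7.82 for chow P21 (n = 3) and 31.9 ± 0.706 for HFD P21 (n = 4). A listed 0 allows up to 3 reads, or 0.0826 to 0.138 units, by counting error only.

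Each comparison was fitted over all genes in R 4.3.3 with limma 3.58.1, using the trend of variance with intensity and log2(value + 1). Genes entered when above 1 unit in a number of libraries no less than the size of the smaller group, with Benjamini-Hochberg adjustment at 0.05. Fold changes on this scale understate changes of low genes. The count test foreseen for raw counts was run as an addition, with edgeR 4.0.16 on the recovered reads of all libraries and of the 6 libraries with sharp steps of 1 read. It called 33 genes at P0 and 15 at P21 for diet, 4949 and 6781 for age in chow and HFD offspring and 14 for the interaction, over all libraries. Ratios to Pomc used exact permutation tests, and relations between members used exact permutation of pairings. The statistics were tested on simulated data. Alternatives were other pseudocounts, no filter, other scalings, a robust prior, a fit of all groups, a replicate block and each library left out. The text names the 5 members, Pomc, the 3 genes most like each member, and listed genes that passed or had the smallest p. Ghsr and the POMC neuron markers other than Pomc were named after their values were seen. Gene symbols matched GENCODE M21 for 14404 of 15355 genes (93.8%). The members and lists were chosen with earlier results of these data known.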

Additional observations from a re-analysis of the deposited data

Results flagged for a closer look

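Within groups of 4 or 5 libraries, 4 of 15 member and group combinations had a library far from the others by Dixon's gap test, which chance gives in about 1 in 20 groups. In HFD P0 replicate 5 the value was 25.57 units for Agrp, 178.7 for Npy and 32.45 for Npy1r, with the gap to the next library making up 0.804, 0.843 and 0.842 of the group's range (critical value 0.71). That library also had the highest Pomc of its group, 1057 units, and its place in the 3 combinations is 1 observation rather than 3. In chow P0 replicate 2 Npy5r stood at 0.04 units, a single read, with a gap of 0.902 of the range. Groups of 3, and so chow P21 replicate 3, were not examined in this way.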

How the results depend on the processing

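The replicate numbers did not consistently pair the libraries, and whether they stand for a pairing is not given. Correlations of same-numbered libraries ran from -0.178 to 0.507 at P0 and -0.0486 to 0.110 at P21. They ran from -0.0987 to 0.0951 for age in chow and -0.0461 to 0.125 for age in HFD. In the same order, 2 of 5, 1 of 3, 1 of 3 and 2 of 4 matched their own number best. With a replicate block 104 genes were called at P0, 3 at P21 and 133 for the interaction, against 41, 25 and 4 without it. Npy1r at P21 was then 1.42 (limma adjusted p = 0.0503) and its interaction 2.14 (adjusted p = 0.00847). With all 4 groups in 1 fit 9 genes were called at P0, and Npy1r at P21 was 1.41 (adjusted p = 0.112). At P21 16 genes were called without a filter, 42 with a robust prior and 15 by edgeR on all libraries. The robust prior left Agrp with age in chow at 2.50 (adjusted p = 0.0637). Scaling columns to equal sums gave 9 interaction calls, and edgeR on all libraries 14. Equal sums moved the median of all genes by -0.158 for age in HFD and changed the split of higher and lower calls from 3521 and 3729 to 2851 and 4583 there, from 14 and 11 to 13 and 22 at P21 and from 2 and 2 to 2 and 7 for the interaction. No member changed sign or side of the threshold under equal sums or median-of-ratios scaling.

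edgeR on all libraries called Npy with age in chow (1.76, adjusted p = 0.0175). On the 6 libraries with sharp steps, where chow P21 replicate 3 is the lone P21 library and is assumed to vary like the others, edgeR called 3 genes at P0 and 945 for age in chow. There Npy2r at P0 was -0.34, and with age in chow Agrp was -0.092, Npy -1.08, Npy1r 1.18, Npy2r 1.90 and Npy5r 1.95, none of them passing. These additions were chosen after seeing the data.

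Leaving out each library gave 18 to 135 calls at P0, 3 to 51 at P21, 3912 to 5161 for age in chow, 6417 to 8119 for age in HFD and 2 to 557 for the interaction. Npy2r at P0 ran from -0.061 to 0.64. Agrp with age in chow ran from 1.81 to 3.63, Npy from 0.66 to 2.29, and the Npy1r interaction from 2.01 to 2.55. Relative to Pomc, with age in chow Agrp ran from -2.02 to 0.48 and Npy2r from -0.90 to 0.61, and with diet at P21 Agrp from -0.78 to 1.72, Npy from -0.75 to 1.59, Npy2r from -0.30 to 1.21 and Npy5r from -0.049 to 1.27, with each sign turned by chow P21 replicate 3. Npy5r in chow P0 replicate 2 rests on a single read, while the other P0 libraries held 19 to 183 reads of it. That library held 23.9 M reads, and HFD P0 replicate 4, with 22.7 M reads, held 54 reads of Npy5r. All P0 libraries held 40 to 915 reads of Npy2r.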
